A study of Homo sapiens with 18 samples.

Results

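Glycolysis and hypoxia-response genes are described here as 38 genes, chosen by gene symbol from the 58302 genes listed in 3 deposited expression tables, and each of the 38 symbols was found. The members were 2 glucose transporters, 9 genes from hexokinase to triose phosphate, 3 genes for the enzymes of fructose-2,6-bisphosphate, 6 genes from triose phosphate to pyruvate, 4 genes of lactate dehydrogenase and monocarboxylate transport, 2 pyruvate dehydrogenase kinases, 4 carbonic anhydrases and secreted factors, 5 other hypoxia-response genes and 3 genes of oxygen sensing. The tables came from 3 lung cancer cell lines, the MET-amplified line EBC-1 and the lines PC-9 and HCC827, which both carry a deletion in exon 19 of EGFR. In each line, cells with stable knockdown of the kinase SYK by a lentiviral shRNA (shSYK) were compared with negative control cells (nc), which made 6 groups of 3 libraries and 18 in all. All 3 shSYK groups carried the same shRNA clone, no second shRNA against SYK was sequenced, and the sequence of the control is not given in the sources used here. Neither the labels nor the methods give the oxygen or glucose supply of the cultures. The values are FPKM, read fragments scaled by gene length and by the size of the library.

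Glycolysis turns glucose into pyruvate, and lactate dehydrogenase then turns pyruvate into lactate, which leaves the cell through monocarboxylate transporters. Pyruvate can instead enter the mitochondria through pyruvate dehydrogenase, an enzyme that the pyruvate dehydrogenase kinases switch off. In well-oxygenated cells the prolyl hydroxylases EGLN1 and EGLN3 mark the transcription factor HIF-1α (gene HIF1A) for destruction. In low oxygen HIF-1α persists, binds short DNA words in promoters and enhancers, and raises most glycolytic enzymes together with genes such as CA9, ADM and VEGFA. Cancer cells often keep glycolysis high in the presence of oxygen, and growth factor signalling through receptors such as MET and EGFR is one of its known inputs.

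The core of the hypoxia-response element is ACGTG or GCGTG, and both words were searched on both strands in the 250 bases upstream of the start sites listed by RefSeq (GRCh38.p14). The table held 32 of the 38 members, with 59 start sites between them. BNIP3L, SLC16A1, VEGFA, NDRG1, PFKFB2 and SLC2A3 were not matched. Of the member start sites, 35 (59.3%) held at least 1 match, against 43.2% of all 35116 start sites in the table. ACGTG was present at 23 (39%) of the member start sites and at 18.5% of all, and GCGTG at 19 (32.2%) and 32.2%. Several start sites of a gene overlap, and a match is a description and not a site of binding. The upstream bases of 4 members are printed because these genes have a single listed start and gave some of the largest differences between the cell lines. They are written 5′ to 3′ on the strand of the gene, with the matches in capitals. Where the word reads the same on both strands, as in CACGTG, the 2 matches share a run of capitals. SLC2A1 (chr1:42958869-42959118, minus strand) and EGLN3 (chr14:33951075-33951324, minus strand) held no match. ALDOC (chr17:28576896-28577145, minus strand) held 5 matches in 4 runs of capitals, and PGK1 (chrX:78103998-78104247, plus strand) held 3.
SLC2A1: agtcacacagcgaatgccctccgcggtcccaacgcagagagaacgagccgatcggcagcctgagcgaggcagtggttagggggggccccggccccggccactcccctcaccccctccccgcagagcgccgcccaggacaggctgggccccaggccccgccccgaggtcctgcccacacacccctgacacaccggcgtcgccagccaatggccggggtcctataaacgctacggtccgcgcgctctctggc
ALDOC: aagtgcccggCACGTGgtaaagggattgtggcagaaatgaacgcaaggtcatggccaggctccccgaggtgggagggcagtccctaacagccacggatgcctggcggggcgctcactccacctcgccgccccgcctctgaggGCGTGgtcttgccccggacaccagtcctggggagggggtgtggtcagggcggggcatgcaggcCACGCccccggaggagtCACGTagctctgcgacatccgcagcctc
PGK1: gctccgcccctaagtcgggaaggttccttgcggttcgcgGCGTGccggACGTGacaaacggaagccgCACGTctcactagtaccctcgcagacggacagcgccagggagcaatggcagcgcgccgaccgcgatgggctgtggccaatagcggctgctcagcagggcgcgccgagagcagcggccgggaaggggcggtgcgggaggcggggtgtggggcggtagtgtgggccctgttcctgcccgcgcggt
EGLN3: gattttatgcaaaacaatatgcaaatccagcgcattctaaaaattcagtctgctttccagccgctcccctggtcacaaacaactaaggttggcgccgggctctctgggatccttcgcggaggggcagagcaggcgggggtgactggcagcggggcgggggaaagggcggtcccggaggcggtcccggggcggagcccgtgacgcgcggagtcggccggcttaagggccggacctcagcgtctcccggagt

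Between 7920099 and 15729103 reads per library lay on genes. SYK itself was lower in shSYK than in nc libraries of all 3 lines. It fell from 14.2 ± 1.07 to 7.43 ± 0.189 FPKM in EBC-1, from 6.51 ± 0.698 to 2.09 ± 0.389 in PC-9 and from 9.08 ± 0.649 to 2.99 ± 0.472 in HCC827 (mean ± SD, n = 3), which left 52.3%, 32.1% and 32.9% of the control level. The 6 epithelial markers (EPCAM, KRT8, KRT18, KRT19, CDH1 and CLDN4) summed to between 1243 and 4863 FPKM per library, and leukocyte and fibroblast markers to at most 3.99 and 8.37. In PC-9, the leukocyte marker ITGAM was at 2.77 FPKM in nc and 3.15 in shSYK libraries. Of 4 endothelial markers, PECAM1 was at 13.4 ± 0.902 FPKM in nc and 4.98 ± 0.601 in shSYK libraries of PC-9, and its part in the results was not tested. CDH5 was at 2.42 and 2.38 FPKM in the same groups, and KDR and VWF were at 0.0245 and 0.124 FPKM in nc libraries of PC-9. PC-9 nc replicate 1 stood apart, with 6588 FPKM summed over the 38 members against 4644 and 4947 in the other control libraries of that line. In EBC-1, nc replicate 2 was the control farthest from the others, with 6403 FPKM against 7416 and 7505, and its reads differed from theirs by a chi-square per degree of freedom of 10.6 and 12.2, against 2.23 between those 2. By the same measure EBC-1 shSYK replicate 3 differed by 9.28 and 8.35 from shSYK replicates 1 and 2, against 2.11 between those. PC-9 nc replicate 1 differed by 38.7 and 14.3 from nc replicates 2 and 3, against 9.47 between those. The FPKM were not scaled to an equal sum. Rescaling to an equal sum (TPM) moved the median change of all genes in EBC-1 from 0.01 to 0.13 on the log2 scale, which turned the split of all calls there from 2876 up and 2686 down (51.7% up) to 4001 up and 1891 down (67.9% up). In HCC827 the upward share went from 45.4% to 56.5%. Changes below are on the scale of the deposited FPKM. These are bulk samples, so fewer cells of a kind and less RNA per cell cannot be told apart, and p-values measure the spread between libraries that are not stated to be separate cultures.

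**Figure D1:**
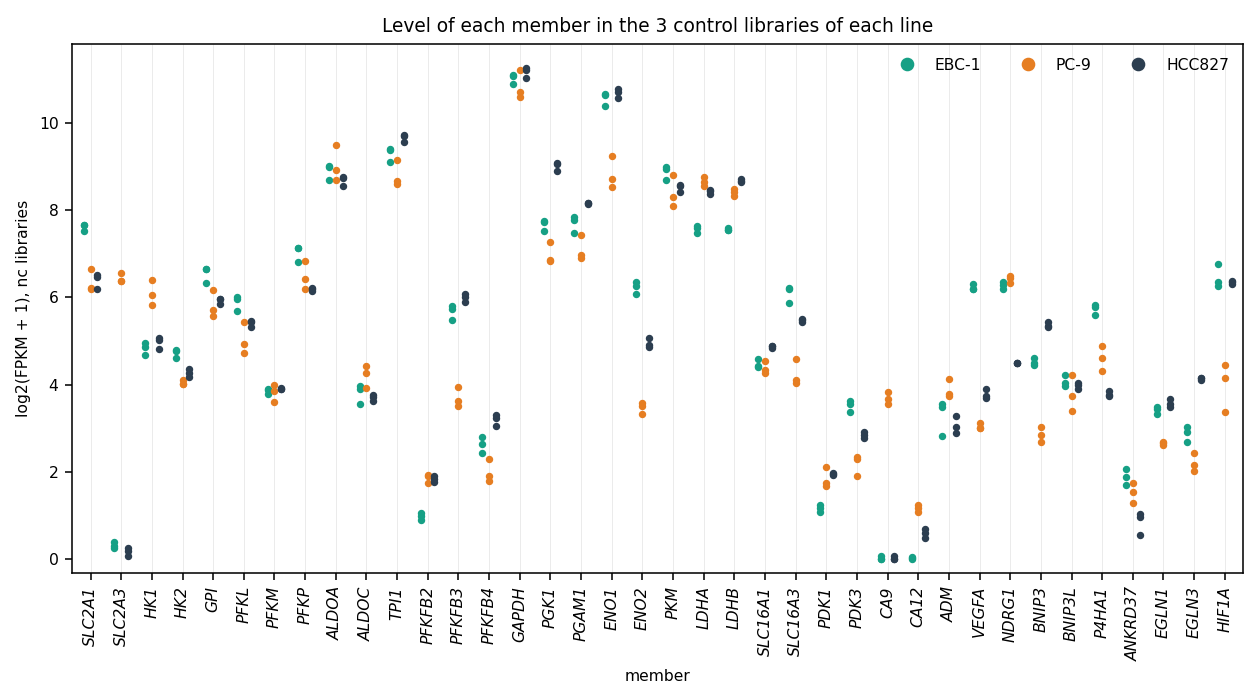
Level of each of the 38 members as log2(FPKM + 1) on the vertical axis, with 1 point for each of the 3 nc libraries of EBC-1, PC-9 and HCC827. GAPDH and ENO1 were the highest members in EBC-1 and HCC827, and SLC2A3 and CA9 were at 85.7 and 12.0 FPKM in PC-9 and under 1 FPKM in the other lines.

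The control cells of the 3 lines did not share the same set of members. Levels between lines are set side by side without a test, since each table was made for 1 line. GAPDH, the enzyme of the step after triose phosphate, was the highest member in every line, at 2077 ± 166 FPKM in EBC-1, at 1862 ± 444 in PC-9 and at 2292 ± 185 in HCC827 (n = 3). SLC2A3, the glucose transporter GLUT3, was at 85.7 ± 6.26 FPKM in PC-9 and at 0.252 ± 0.0621 and 0.134 ± 0.0735 in EBC-1 and HCC827. CA9, a carbonic anhydrase of the cell surface and a common marker of hypoxia, was at 12.0 ± 1.21 FPKM in PC-9, where 3 nc libraries gave 13.2, 11.8 and 10.9. It had at most 2 reads in any library of EBC-1 and at most 1 in HCC827, below the level of 3 reads taken as the limit of detection. HIF1A had the opposite order, with 15.6 ± 5.73 FPKM in PC-9, 88.5 ± 17.3 in EBC-1 and 80.2 ± 1.60 in HCC827. VEGFA, the angiogenic growth factor, was highest in EBC-1 at 74.5 ± 3.68 FPKM, against 12.7 ± 1.12 in HCC827 and 7.28 ± 0.372 in PC-9. SLC2A1, the glucose transporter GLUT1, was at 196 ± 11.7 FPKM in EBC-1, while PC-9 (81.5 ± 15.4) and HCC827 (83.4 ± 10.0) did not differ beyond their spread. PFKM, BNIP3L and GAPDH varied least between lines, by 1.06, 1.20 and 1.23 times.

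The response of the members to SYK knockdown was mostly downward in HCC827, mixed in EBC-1 and nearly absent from the calls in PC-9. The test was limma on log2(FPKM + 1) over genes with a mean of at least 1 FPKM, with a Benjamini-Hochberg adjusted p under 0.05 as the threshold. In EBC-1, 34 members passed the filter, of which 6 rose and 11 fell (17.6% and 32.4%), against 23.1% of all tested genes upward and 21.6% downward. In HCC827, 35 members passed, of which 5 rose and 15 fell (14.3% and 42.9%), against 17.2% and 20.7%. In PC-9, 37 members passed, 1 rose and none fell, against 0.678% and 1.41%. The counts behind these PC-9 shares rest on single libraries. The 82 genes up and 171 down became 298 and 323 without nc replicate 1, 159 and 344 without nc replicate 2, and between 5 and 12 up and between 2 and 12 down without any 1 of the other libraries. By an unadjusted p under 0.05, limma gave 5 of the 37 members in PC-9, beside 1881 of all 12089 genes tested. On reads recovered from the FPKM, limma-voom called 1 member up and 0 down, beside 120 and 360 of all genes tested. The median log2 change of the members tested was -0.04 in EBC-1 beside 0.01 over all genes tested there, 0.04 beside 0.01 in PC-9, and -0.19 beside -0.01 in HCC827. The nc and shSYK libraries did not overlap for 20 members in EBC-1, where 56.9% of all genes tested were so separated. The same held for 6 members in PC-9 (23.7% of all genes) and for 25 in HCC827 (52.3%). With TPM the calls were 9 up and 8 down in EBC-1, where 67.9% of the calls over all genes were then upward. In HCC827 they were 8 up and 12 down with TPM, where 56.5% of the calls over all genes were upward.

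**Figure D2:**
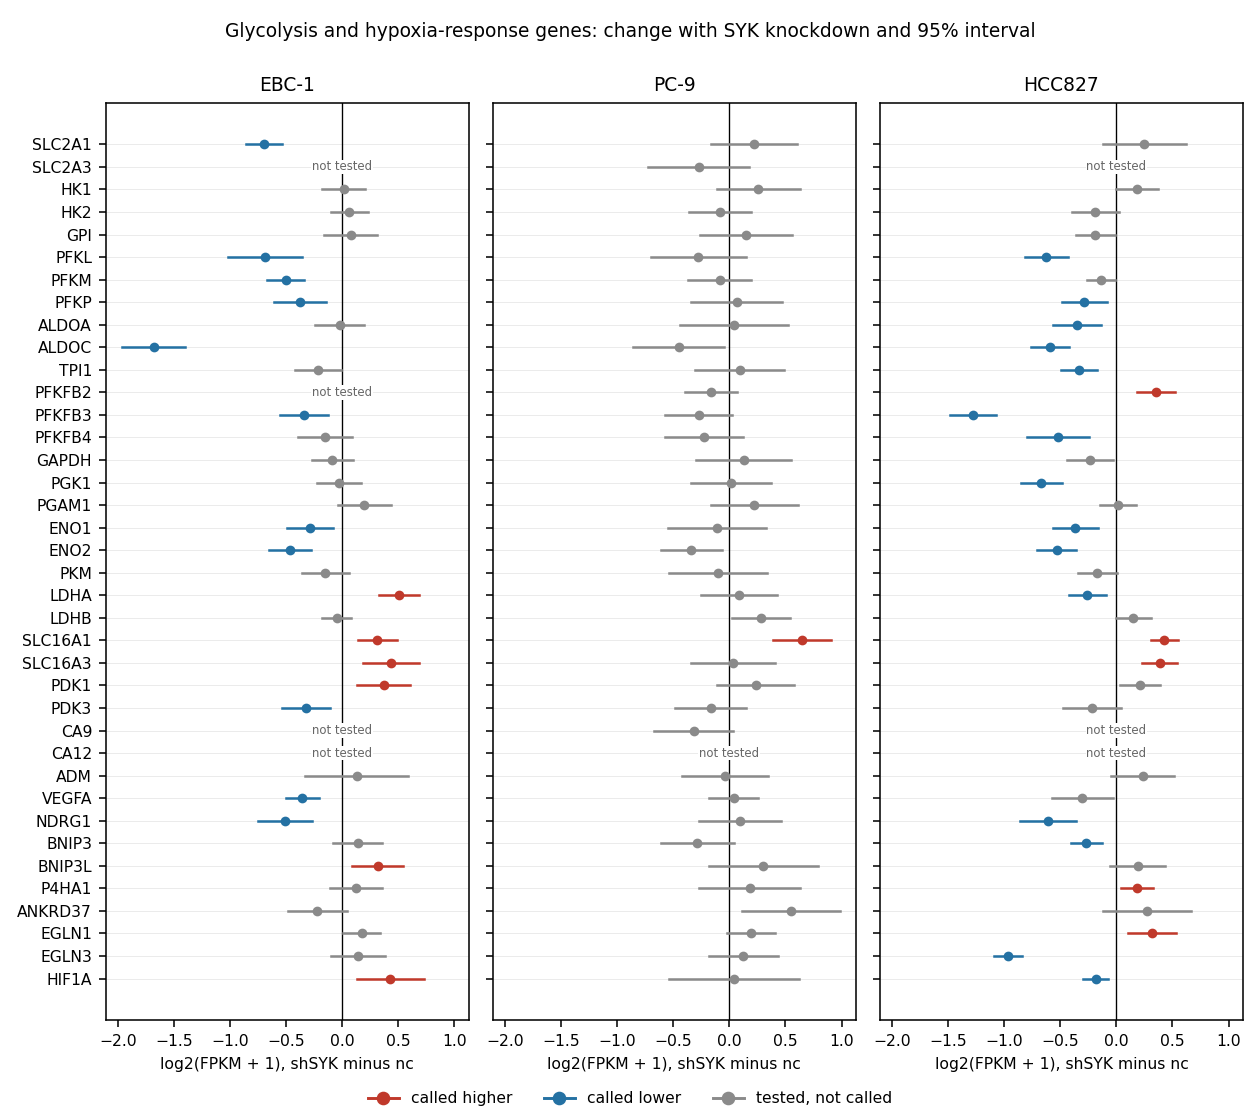
Change of each member in shSYK against nc cells as a difference of log2(FPKM + 1), with points for limma estimates and bars for 95% intervals, in 1 panel per cell line. Blue members fell (11 in EBC-1, 15 in HCC827), red members rose (6, 1 and 5 in EBC-1, PC-9 and HCC827) and grey members were tested and not called.

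These counts depended on single libraries in EBC-1, and so did the calls over all genes there. The 6 rises there became 2 without nc replicate 1, 3 without nc replicate 3, shSYK replicate 1 or shSYK replicate 3, and 4 without shSYK replicate 2. The 11 falls became 7 without nc replicate 3 and 14 without nc replicate 2, while the rises stayed at 6 without it. Over all genes in EBC-1, 2876 rises and 2686 falls became 1959 and 1802 without nc replicate 1. They became 3259 and 3050 without nc replicate 2, and 2092 and 1943 without nc replicate 3. Without any 1 of the shSYK libraries there were 2154 to 2164 rises and 2180 to 2230 falls. The single call in PC-9 was lost without nc replicate 3 or any 1 of the shSYK libraries. In HCC827 the 5 rises became 3 without nc replicate 1, nc replicate 2 or shSYK replicate 2, and the 15 falls became 10 without nc replicate 1. Over all genes in HCC827, 2066 rises and 2488 falls became 1602 and 1905 without nc replicate 1. The rises over all genes became 1699 without nc replicate 2 and 1450 without shSYK replicate 2. Under every alternative run, 7 falls were kept in EBC-1 (SLC2A1, PFKL, PFKM, ALDOC, ENO2, VEGFA and NDRG1) and none of the rises. In HCC827, 7 falls (PFKL, ALDOC, PFKFB3, PGK1, ENO2, NDRG1 and EGLN3) and 3 rises (PFKFB2, SLC16A1 and SLC16A3) were kept.

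Of the 34 members tested in both EBC-1 and HCC827, 7 fell in both lines (PFKL, PFKP, ALDOC, PFKFB3, ENO1, ENO2 and NDRG1), where 8.52% of all genes tested in both did so. SLC16A1 and SLC16A3 rose in both, where 8.64% of all genes did. Of the 7 shared falls, those of PFKL, ALDOC, ENO2 and NDRG1 were kept under every alternative in both lines. LDHA and HIF1A rose in EBC-1 and fell in HCC827, and the share of all genes called in opposite directions is not given here. SLC16A1 was called upward in all 3 lines, against 0.16% of genes tested in all 3.

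Of the glucose transporters, SLC2A1 fell in EBC-1. SLC2A1 (chromosome 1, 42925375 to 42959173, hg38) was at 203, 182 and 202 FPKM in the nc and at 120, 124 and 116 FPKM in the shSYK libraries of EBC-1. The groups were far apart, and the level fell 1.63-fold (log2 change -0.70, SE 0.07, adjusted p = 0.000404). In HCC827 the nc libraries held 90.3, 88.0 and 71.9 FPKM and the shSYK libraries 124, 97.9 and 79.6, with a log2 change of 0.25 (SE 0.16, adjusted p = 0.252, and 0.0316 by limma-voom). In PC-9 the values were 99.3, 73.0 and 72.2 in nc and 81.3, 99.8 and 102 in shSYK libraries (0.22, SE 0.16, adjusted p = 0.591). The groups overlapped in both of these lines. SLC2A3 was tested in PC-9, where its libraries ranged from 53.5 to 92.9 FPKM and overlapped (-0.27, adjusted p = 0.571). Reads of SLC2A3 can be shared with its near-identical neighbour SLC2A14.

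The steps from hexokinase to triose phosphate held the largest fall of all members. ALDOC, the aldolase isozyme best known from brain (chromosome 17, 28573115 to 28577264), was at 14.6, 10.8 and 14.0 FPKM in nc and at 3.03, 3.77 and 3.36 FPKM in shSYK libraries of EBC-1. Every shSYK library lay far under every control, a 3.88-fold fall (log2 change -1.68, SE 0.12, adjusted p = 0.000119). HCC827 gave 12.2, 11.4 and 12.5 FPKM in nc and 8.24, 7.77 and 6.97 in shSYK libraries, a fall of smaller size (-0.59, SE 0.07, adjusted p = 0.00112). In PC-9 the nc libraries held 20.4, 14.2 and 18.3 FPKM and the shSYK libraries 10.1, 13.2 and 14.6, which overlapped (-0.45, SE 0.18, adjusted p = 0.272). ALDOC rests on 129 to 590 reads per library in EBC-1, and an overlapping gene on the same strand, AC005726.2, had on average 13.6% of its reads. The related aldolase ALDOA, the main isozyme of most tissues, was far more abundant and was not called in EBC-1. Its nc libraries in EBC-1 held 503, 415 and 518 FPKM and its shSYK libraries 470, 490 and 449, with a log2 change of -0.02 (SE 0.09, adjusted p = 0.868) that turned positive with TPM, quantile normalization and limma-voom. In HCC827 ALDOA fell from 425, 373 and 435 FPKM to 356, 320 and 293 (-0.35, SE 0.09, adjusted p = 0.0212). That call was lost without nc replicate 1 or 3 or shSYK replicate 2 or 3, with adjusted p between 0.0624 and 0.0729, and with quantile normalization (0.0507). It was also lost in the fit of all 18 libraries (adjusted p = 0.111). PC-9 held 715, 414 and 485 FPKM in nc and 501, 530 and 593 in shSYK libraries (0.05, SE 0.21, adjusted p = 0.955), and the high value was that of nc replicate 1. The sign turned negative with quantile normalization.

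Phosphofructokinase, which commits sugar to glycolysis, is made from 3 genes, and its liver form PFKL fell in 2 of the lines. PFKL was at 61.3, 50.5 and 63.2 FPKM in nc and 40.8, 38.5 and 28.8 FPKM in shSYK libraries of EBC-1 (log2 change -0.69, SE 0.14, adjusted p = 0.0072). In HCC827 it went from 43.4, 38.7 and 42.7 to 29.8, 25.2 and 25.1 FPKM (-0.62, SE 0.08, adjusted p = 0.00144). The groups did not overlap in either line, and the calls were kept under every alternative. PC-9 held 42.4, 25.5 and 29.4 FPKM in nc and 24.9, 25.8 and 27.4 in shSYK libraries, and the overlap came from nc replicate 2 (-0.28, SE 0.18, adjusted p = 0.536). PFKM, the muscle form, fell in EBC-1 from 14.0, 12.9 and 13.7 to 9.45, 9.61 and 8.65 FPKM (-0.50, SE 0.07, adjusted p = 0.0015). In HCC827 PFKM was at 14.0, 14.2 and 14.0 FPKM in nc and 12.2, 13.3 and 12.5 in shSYK libraries, which did not overlap and missed the threshold (-0.14, SE 0.05, adjusted p = 0.0749). PC-9 gave 15.0, 11.2 and 13.5 against 12.0, 12.4 and 12.7 FPKM (-0.09, SE 0.12, adjusted p = 0.808). SENP1 overlaps PFKM on the opposite strand with on average 20.5% of its number of reads. The platelet form PFKP fell by 0.38 in EBC-1 and by 0.29 in HCC827 on the log2 scale (adjusted p = 0.0186 and 0.0355). The PFKP calls were lost without EBC-1 nc replicate 1 or 3 or shSYK replicate 3 (adjusted p up to 0.0735), and without any HCC827 library other than shSYK replicate 1 (up to 0.1), with TPM (0.0783) and with quantile normalization (0.0506).

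Hexokinase did not follow phosphofructokinase. HK2, the hexokinase that is induced in many tumours, was at 26.3, 23.3 and 26.6 FPKM in nc and at 26.4, 26.5 and 26.7 in shSYK libraries of EBC-1 (0.06, SE 0.07, adjusted p = 0.492), and with TPM it passed the threshold upward (0.19, adjusted p = 0.0383). It was at 15.2, 16.1 and 15.3 against 12.5, 16.2 and 15.4 FPKM in PC-9 (-0.08, SE 0.12, adjusted p = 0.82) and at 19.6, 18.3 and 17.0 against 17.4, 16.5 and 14.0 in HCC827 (-0.19, SE 0.09, adjusted p = 0.142). All 3 comparisons overlapped. HK1, the hexokinase of most tissues, and GPI, which isomerises glucose 6-phosphate, were not called in any line, with log2 changes between -0.19 and 0.26. Triose phosphate isomerase TPI1 fell in HCC827, from 832, 753 and 844 to 661, 653 and 611 FPKM (-0.33, SE 0.07, adjusted p = 0.0088), and it was not called in EBC-1 (-0.21) or PC-9 (0.09). The TPI1 call was lost with no filter (adjusted p = 0.0603), in the fit of all 18 libraries (0.0591) and with trends on the length and GC content of genes removed (-0.12, adjusted p = 0.15).

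The enzymes that set fructose-2,6-bisphosphate, the strongest activator of phosphofructokinase, gave the largest fall in HCC827. PFKFB3, the form with the highest kinase activity (chromosome 10, 6144934 to 6254644), was at 66.3, 58.9 and 63.3 FPKM in nc and at 27.9, 25.9 and 22.4 FPKM in shSYK libraries of HCC827. This was a 2.47-fold fall with no overlap (log2 change -1.28, SE 0.09, adjusted p = 0.000153). In EBC-1 PFKFB3 went from 54.7, 43.6 and 52.0 to 40.0, 37.5 and 40.2 FPKM (-0.34, SE 0.09, adjusted p = 0.021), a call lost without nc replicate 1 or 3 or shSYK replicate 1 or 2 (adjusted p between 0.0511 and 0.0826) and with TPM (0.0695). In PC-9 the values were 14.4, 10.4 and 11.5 against 9.24, 9.98 and 10.0 FPKM, without overlap and not called (-0.27, SE 0.13, adjusted p = 0.367). PFKFB4, a hypoxia-induced relative, fell by 0.52 on the log2 scale in HCC827 (SE 0.12, adjusted p = 0.0127) and was not called in EBC-1 (-0.15) or PC-9 (-0.22). The PFKFB4 call was lost with no filter (adjusted p = 0.0505). PFKFB2, the form first known from heart, went the other way in HCC827, from 2.56, 2.79 and 2.39 to 3.55, 3.67 and 3.49 FPKM (0.35, SE 0.07, adjusted p = 0.00811). YOD1 overlaps PFKFB2 on the opposite strand with on average 61.0% of its number of reads, and the strand used in counting is not given in the sources used here. PFKFB2 was not called in PC-9 (-0.17, adjusted p = 0.488) and was below the filter in EBC-1, with 0.98 ± 0.115 FPKM in nc libraries.

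**Figure D3:**
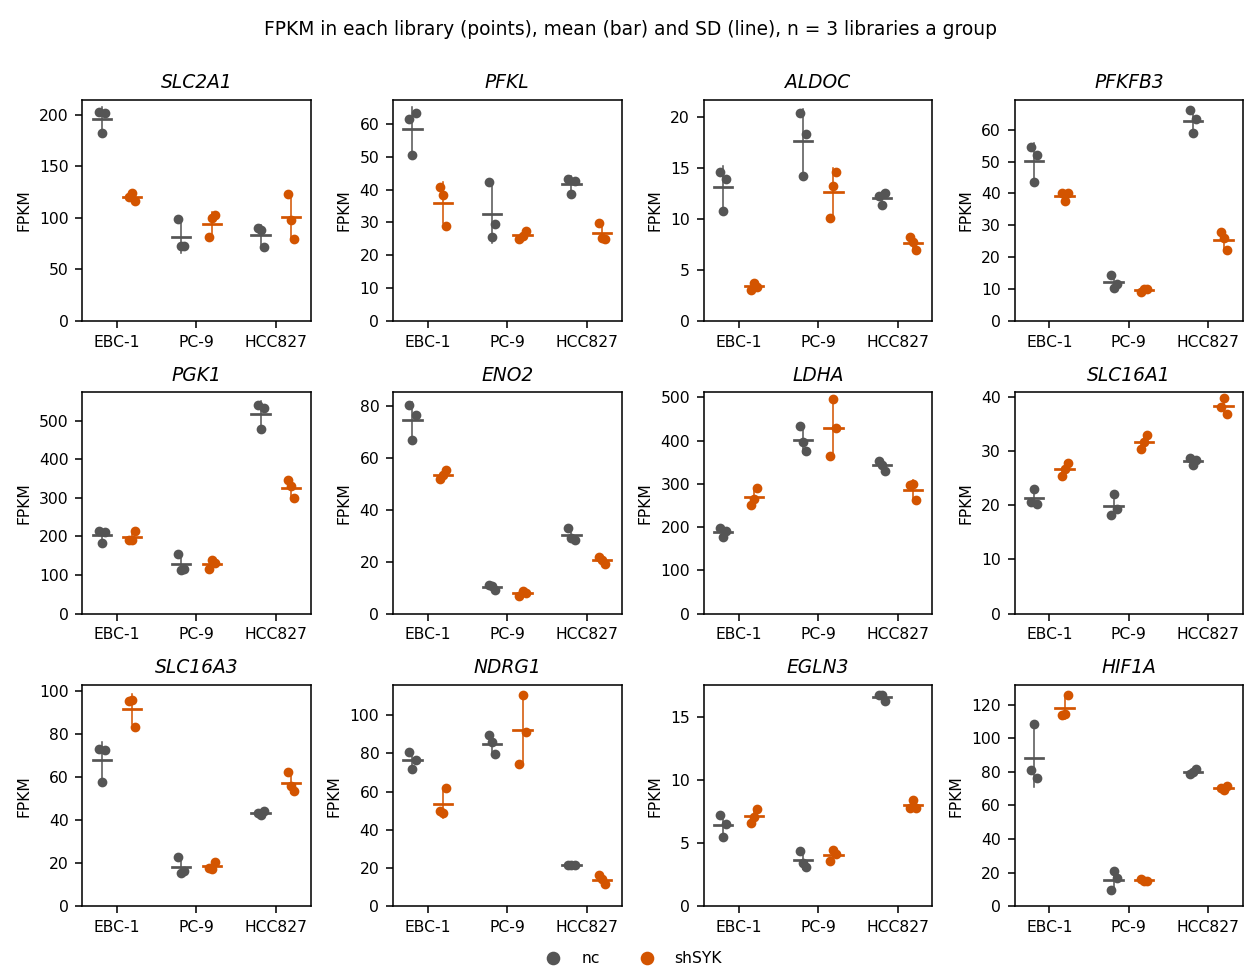
FPKM on the vertical axis (linear, from 0) of 12 members in every library, with grey points for nc and orange points for shSYK, bars for the mean and lines for ±1 SD of 3 libraries. ALDOC and SLC2A1 dropped most clearly in EBC-1, PFKFB3, PGK1 and EGLN3 in HCC827, and SLC16A1 was higher in shSYK libraries of all 3 lines.

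In the steps from triose phosphate to pyruvate PGK1, which makes the first ATP of glycolysis, fell in HCC827. PGK1 (chromosome X, 78065188 to 78129296) was at 539, 478 and 533 FPKM in nc and at 345, 331 and 299 FPKM in shSYK libraries of HCC827 (log2 change -0.67, SE 0.08, adjusted p = 0.00098). The control level there was 4.05 times that of PC-9, the lowest of the lines, and the call was kept under every alternative. EBC-1 held 213, 183 and 211 FPKM in nc and 191, 191 and 215 in shSYK libraries (-0.03, SE 0.08, adjusted p = 0.809), and the sign flipped with TPM, quantile normalization and limma-voom. PC-9 held 154, 113 and 116 against 115, 138 and 132 FPKM (0.02, SE 0.15, adjusted p = 0.975), and the sign flipped with TPM and quantile normalization.

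Enolase, the step before the last, has a general form (ENO1) and a neuronal form (ENO2). ENO1 was at 1680, 1507 and 1742 FPKM in nc and at 1365, 1277 and 1186 FPKM in shSYK libraries of HCC827 (-0.36, SE 0.08, adjusted p = 0.0131). This HCC827 call was lost without nc replicate 1 (adjusted p = 0.0529) and with no filter (0.132). It was also lost in the fit of all 18 libraries (0.0667) and with the trends on length and GC content removed (0.0626). In EBC-1 it went from 1581, 1342 and 1629 to 1267, 1286 and 1167 FPKM (-0.29, SE 0.09, adjusted p = 0.0325). This EBC-1 call was lost in 11 of 17 alternatives, among them the omission of any library but nc replicate 2, with adjusted p up to 0.109, and the change became 0.11 with quantile normalization. PC-9 gave 608, 371 and 421 against 408, 413 and 445 FPKM (-0.11, SE 0.19, adjusted p = 0.845). ENO2 fell by 0.47 in EBC-1 and by 0.53 in HCC827 on the log2 scale (adjusted p = 0.00359 and 0.00196), and both calls were kept under every alternative. ENO2 missed the threshold in PC-9 although its groups did not overlap (-0.34, SE 0.12, adjusted p = 0.218). LRRC23, on the same strand, overlaps ENO2 with 10.2% of its reads.

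Pyruvate kinase PKM, the last step, was not called in any line. Its nc libraries were at 494, 410 and 505 FPKM in EBC-1 and its shSYK libraries at 434, 426 and 405 (-0.15, SE 0.09, adjusted p = 0.21). Without nc replicate 2, the low control, PKM passed the threshold in EBC-1 (adjusted p = 0.0115), and with quantile normalization its sign flipped. The values were 443, 273 and 315 against 294, 309 and 340 FPKM in PC-9 (-0.10, SE 0.19, adjusted p = 0.867) and 375, 343 and 382 against 348, 329 and 302 in HCC827 (-0.17, SE 0.07, adjusted p = 0.111). GAPDH and the phosphoglycerate mutase PGAM1 were not called either, with log2 changes from -0.23 to 0.22. GAPDH has 62 listed pseudogenes, which together took at most 0.281% of its reads in any library.

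Among the 4 genes of lactate production and export, 3 rose in EBC-1, 1 rose in PC-9, and HCC827 had 2 rises and 1 fall, beside 23.1%, 0.678% and 17.2% of all genes upward in these lines. None of the rises in EBC-1 and PC-9 was kept under every alternative. LDHA, the lactate dehydrogenase subunit that favours lactate (chromosome 11, 18394388 to 18408425), rose in EBC-1 from 198, 178 and 191 to 251, 264 and 290 FPKM (log2 change 0.50, SE 0.08, adjusted p = 0.00212). The groups were clearly apart, and of all alternatives the call was lost in 1, which removed trends on the length and GC content of genes (0.24, adjusted p = 0.053). In HCC827 LDHA fell from 354, 343 and 331 to 297, 300 and 262 FPKM (-0.26, SE 0.07, adjusted p = 0.0236). That fall was lost without nc replicate 1 or 2 or shSYK replicate 3 (adjusted p between 0.052 and 0.0865), with TPM (0.0502) and with quantile normalization (0.211). PC-9 held 433, 396 and 375 FPKM in nc and 364, 495 and 430 in shSYK libraries, whose spread covered the controls (0.09, SE 0.14, adjusted p = 0.842), and the sign turned negative with quantile normalization. LDHB, the subunit that favours pyruvate, was not called, with log2 changes of -0.05, 0.29 and 0.15 in EBC-1, PC-9 and HCC827.

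SLC16A1, the monocarboxylate transporter MCT1 (chromosome 1, 112911847 to 112957013), was the member called upward in all 3 lines. It rose in EBC-1 from 20.6, 23.0 and 20.3 to 25.4, 26.8 and 27.9 FPKM (0.31, SE 0.07, adjusted p = 0.0123). In PC-9 it rose from 18.3, 22.2 and 19.2 to 30.4, 31.7 and 32.9 FPKM (0.65, SE 0.11, adjusted p = 0.0346). HCC827 rose from 28.7, 27.5 and 28.4 to 38.2, 39.7 and 36.8 FPKM (0.43, SE 0.05, adjusted p = 0.00114). No shSYK library reached down to a control in any line. The EBC-1 call was lost without nc replicate 1 (adjusted p = 0.0557). With the trends on length and GC content removed, the EBC-1 change shrank to 0.14 (adjusted p = 0.0392). The PC-9 call was lost without nc replicate 3 or any 1 of the shSYK libraries (between 0.167 and 0.202). It was also lost with TPM (0.0662), quantile normalization (0.0516), no filter (0.0767) and the replicate block (0.069), while the change in PC-9 stayed between 0.59 and 0.72. SLC16A3, the exporter MCT4, rose in EBC-1 from 72.8, 57.9 and 72.7 to 95.4, 95.8 and 83.4 FPKM (0.43, SE 0.11, adjusted p = 0.0143) and in HCC827 from 43.5, 42.4 and 44.4 to 62.5, 55.7 and 53.6 (0.39, SE 0.07, adjusted p = 0.00431). The groups did not overlap in either line, and the EBC-1 call was lost after a trend on gene length had been removed (adjusted p = 0.0639). In PC-9 SLC16A3 was at 23.1, 15.5 and 16.4 against 17.8, 17.5 and 20.5 FPKM (0.04, SE 0.16, adjusted p = 0.951). CSNK1D overlaps SLC16A3 on the opposite strand with on average 45.4% of its number of reads.

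Of the pyruvate dehydrogenase kinases, PDK1 rose in EBC-1 and PDK3 fell, as did PDK2 and PDK4, which are no members (-0.70 and -1.13). PDK1, a HIF target, was at 1.25, 1.38 and 1.13 FPKM in nc and 1.83, 1.79 and 2.10 in shSYK libraries (0.37, SE 0.10, adjusted p = 0.0212), a rise that turned to -0.09 once the trends on length and GC content were removed. It was also lost without nc replicate 1 or 3 or shSYK replicate 1 or 3 (adjusted p between 0.0531 and 0.0722). In HCC827 PDK1 went from 2.87, 2.92 and 2.79 to 3.84, 3.31 and 3.30 FPKM and missed the threshold (0.21, SE 0.08, adjusted p = 0.0592), which it passed with TPM (0.0482) and limma-voom (0.00335). PC-9 held 2.19, 3.32 and 2.39 against 2.81, 3.74 and 3.21 FPKM (0.23, SE 0.15, adjusted p = 0.508). PDK3 fell by 0.32 in EBC-1 (adjusted p = 0.024), a call lost without nc replicate 3 or shSYK replicate 1 or 2 (between 0.0657 and 0.0822), with TPM (0.125) and by limma-voom (0.0799), and it was not called in PC-9 (-0.17) or HCC827 (-0.22).

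Among the secreted and surface products of the hypoxia response, VEGFA fell in EBC-1. Its nc libraries were at 78.7, 72.3 and 72.4 FPKM and its shSYK libraries at 58.6, 57.3 and 57.9 (log2 change -0.36, SE 0.06, adjusted p = 0.00373), and the call was kept under every alternative. HCC827 held 11.9, 14.0 and 12.3 FPKM in nc and 12.3, 8.93 and 9.44 in shSYK libraries, which overlapped (-0.30, SE 0.12, adjusted p = 0.0764). Without shSYK replicate 1 of HCC827 and by limma-voom, VEGFA passed the threshold there, and the adjusted p over its alternatives ran from 0.0119 to 0.217. In PC-9 it was at 7.04, 7.71 and 7.09 against 6.95, 7.87 and 7.73 FPKM (0.04, SE 0.09, adjusted p = 0.9). ADM, which encodes the vasodilator adrenomedullin, overlapped in every line. It was at 10.7, 6.14 and 10.2 against 8.56, 9.18 and 11.6 FPKM in EBC-1 (0.13, SE 0.20, adjusted p = 0.619), at 16.5, 12.9 and 12.5 against 10.7, 15.3 and 14.6 in PC-9 (-0.04, SE 0.16, adjusted p = 0.947) and at 8.81, 7.20 and 6.49 against 10.4, 8.30 and 8.29 in HCC827 (0.24, SE 0.12, adjusted p = 0.161, and 0.0306 by limma-voom). CA9 in PC-9 was at 13.2, 11.8 and 10.9 FPKM in nc and 7.92, 11.7 and 8.85 in shSYK libraries (-0.32, SE 0.15, adjusted p = 0.367). ARHGEF39 overlaps CA9 on the opposite strand with 143 reads on average, against 64.9 for CA9 over all 18 libraries. CA12 did not pass the filter in any line. It was at 1.14, 1.25 and 1.38 FPKM in nc and 0.719, 0.617 and 0.755 in shSYK libraries of PC-9.

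NDRG1, a differentiation-associated gene that hypoxia raises in many cells, fell in the 2 lines where most other calls were made. In EBC-1 it went from 80.8, 71.7 and 76.4 to 49.6, 48.6 and 62.0 FPKM (-0.51, SE 0.10, adjusted p = 0.00639). In HCC827 the controls were nearly equal at 21.5, 21.5 and 21.6 FPKM, and the shSYK libraries held 16.1, 14.2 and 11.5 (-0.61, SE 0.11, adjusted p = 0.00459). The groups did not overlap in either line. PC-9 held 89.4, 85.9 and 79.7 against 74.7, 111 and 91.0 FPKM, with shSYK libraries on both sides of the controls (0.10, SE 0.16, adjusted p = 0.835). BNIP3, a mitophagy receptor, fell in HCC827 from 39.0, 39.5 and 42.1 to 35.1, 32.5 and 32.0 FPKM (-0.27, SE 0.06, adjusted p = 0.0105). That call was lost in the fit of all 18 libraries (adjusted p = 0.0809). BNIP3 was at 23.4, 20.9 and 21.7 against 22.9, 22.6 and 27.7 FPKM in EBC-1 (0.14, SE 0.09, adjusted p = 0.263) and at 6.24, 7.20 and 5.42 against 4.22, 5.92 and 4.85 in PC-9 (-0.28, SE 0.14, adjusted p = 0.386). Both of these comparisons overlapped. Pseudogenes of BNIP3 took up to 6.28% of its reads.

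The related mitophagy receptor BNIP3L rose by 0.31 in EBC-1 (SE 0.10, adjusted p = 0.0341). That call was lost without any 1 library other than nc replicate 2 (adjusted p between 0.0533 and 0.12) and the change was -0.02 with the trends on length and GC content removed. PNMA2 overlaps BNIP3L on the opposite strand with on average 20.2% of its number of reads. P4HA1, a collagen prolyl hydroxylase, rose by 0.18 in HCC827 (adjusted p = 0.0497), and this call was lost without any 1 library other than nc replicate 3 (between 0.052 and 0.151). It was also lost in the fit of all 18 libraries (adjusted p = 0.373). ANKRD37 was low, with at most 115 reads in a library, and was not called. UFSP2 on the opposite strand overlaps ANKRD37 with on average 264% of its number of reads.

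Among the genes of oxygen sensing EGLN3, the hydroxylase that HIF itself induces (chromosome 14, 33924231 to 34462774), had the largest change, in HCC827. In HCC827 EGLN3 was at 16.7, 16.7 and 16.2 FPKM in nc and at 7.77, 8.41 and 7.80 FPKM in shSYK libraries. The level fell 2.07-fold (log2 change -0.96, SE 0.05, adjusted p = 9.54e-05), and the call was kept under every alternative. In EBC-1 EGLN3 was at 7.22, 5.47 and 6.52 against 6.60, 7.07 and 7.72 FPKM (0.14, SE 0.10, adjusted p = 0.304) and in PC-9 at 4.40, 3.45 and 3.08 against 3.57, 4.45 and 4.11 (0.13, SE 0.13, adjusted p = 0.728). Both comparisons overlapped. The gene model of EGLN3 overlaps SPTSSA on the same strand, which had on average 181% of its number of reads. EGLN1, the main oxygen sensor of most cells, rose by 0.32 in HCC827 (SE 0.09, adjusted p = 0.0304), a call lost without nc replicate 1 or 2 or shSYK replicate 1 or 2 (between 0.0665 and 0.0939). Its shSYK libraries lay above its controls in EBC-1 and PC-9 as well, where EGLN1 was not called. It was between 9.03 and 10.3 FPKM in nc and between 10.8 and 11.3 in shSYK libraries of EBC-1 (0.17, SE 0.07, adjusted p = 0.0784), and between 5.16 and 5.48 in nc and between 5.93 and 6.79 in shSYK libraries of PC-9 (0.19, SE 0.09, adjusted p = 0.367).

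HIF1A mRNA was higher in shSYK cells of EBC-1 and lower in those of HCC827, and neither call was firm. In EBC-1 it went from 81.0, 108 and 76.2 to 114, 115 and 126 FPKM (log2 change 0.43, SE 0.13, adjusted p = 0.0303). The second control stood close to the shSYK libraries, and the call was lost without any 1 of the other libraries (adjusted p between 0.0613 and 0.102) and with the trends on length and GC content removed (0.04, adjusted p = 0.645). In HCC827 HIF1A fell from 78.6, 80.2 and 81.8 to 70.2, 69.4 and 71.8 FPKM (-0.18, SE 0.05, adjusted p = 0.0195). The HCC827 call was lost without nc replicate 1 or 3 or shSYK replicate 2 (adjusted p between 0.0507 and 0.0646), with TPM (0.105), with quantile normalization (0.145) and by limma-voom (0.0824). It was also lost in the fit of all 18 libraries (adjusted p = 0.508). PC-9 held 9.44, 20.7 and 16.7 FPKM in nc and 16.2, 15.2 and 14.8 in shSYK libraries (0.04, SE 0.25, adjusted p = 0.963). These values are mRNA, and HIF-1α protein is set mainly by its destruction.

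**Figure D4:**
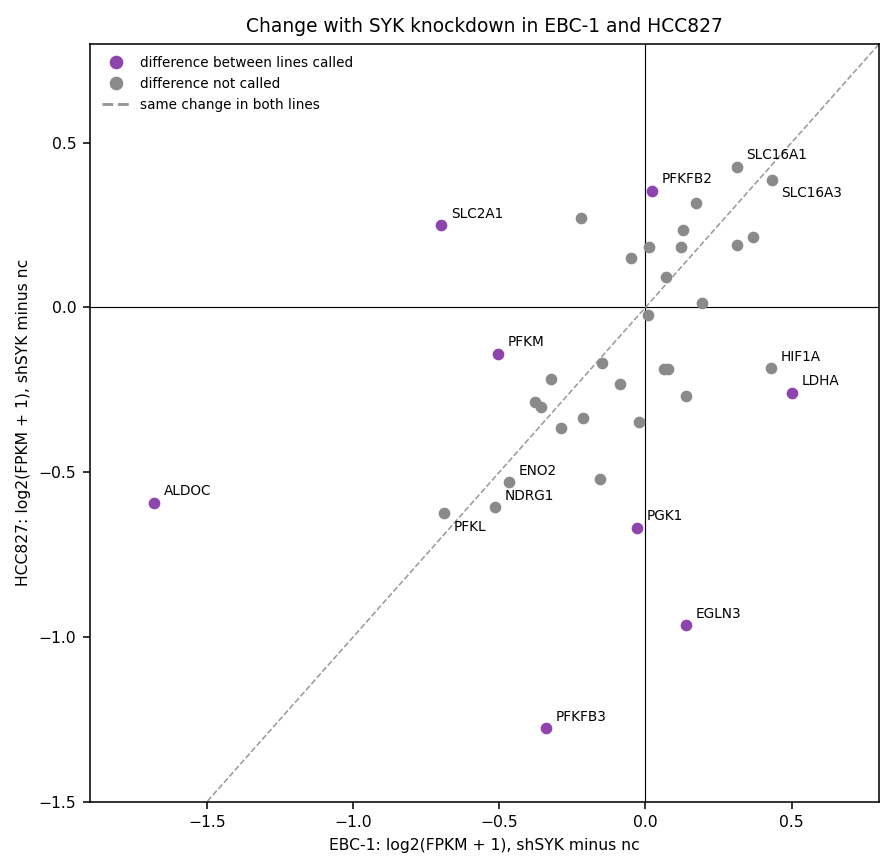
Log2(FPKM + 1) change of 37 members with SYK knockdown in EBC-1 (horizontal axis) against HCC827 (vertical axis), with the dashed line where both lines change alike. The 8 members in purple differed between the lines, with PFKFB3, EGLN3 and PGK1 lower in HCC827, ALDOC and SLC2A1 lower in EBC-1, and LDHA on opposite sides of 0.

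Whether the response differed between the lines was tested by limma over the 18 libraries together, as the difference of the shSYK minus nc changes, over the 37 members with a mean of at least 1 FPKM. EBC-1 and HCC827 differed in 8 members, where 21.8% of all genes tested differed. The difference (EBC-1 minus HCC827) was 1.10 for EGLN3 (SE 0.15, adjusted p = 7.33e-05), 0.94 for PFKFB3 (SE 0.16, adjusted p = 0.000444), 0.76 for LDHA (SE 0.14, adjusted p = 0.00136) and 0.64 for PGK1 (SE 0.16, adjusted p = 0.00981). It was negative for ALDOC, SLC2A1, PFKM and PFKFB2. EBC-1 and PC-9 also differed in 8 members, where 19.8% of all genes did, and in each of the 8 the change was lower in EBC-1. The largest of these were ALDOC (-1.23, SE 0.20, adjusted p = 0.000523) and SLC2A1 (-0.92, SE 0.21, adjusted p = 0.00677). PC-9 and HCC827 differed in 5 members, where 7.5% of all genes did, and the change was lower in HCC827 for EGLN3, PFKFB3, NDRG1 and PGK1 and higher for PFKFB2. For HIF1A, which was called in opposite directions in EBC-1 and HCC827, the difference of 0.61 missed the threshold (SE 0.26, adjusted p = 0.111). The 7 members that fell in both lines did not all fall alike, since the difference was called for ALDOC and PFKFB3 and not for PFKL, PFKP, ENO1, ENO2 or NDRG1. Without PC-9 nc replicate 1, 15 members differed between EBC-1 and PC-9 and 12 between PC-9 and HCC827. Within PC-9, the calls over all genes rose in the same run from 82 up and 171 down to 298 and 323. The count between EBC-1 and PC-9 fell to 3 without EBC-1 nc replicate 1, to 4 without EBC-1 shSYK replicate 1 or 2 or PC-9 shSYK replicate 3, and to 5 without EBC-1 nc replicate 2 or shSYK replicate 3. The share of all genes that differed in these runs is not given here, so the counts are not a result about the members. Of the 21 differences, 11 were kept under every alternative run: SLC2A1, ALDOC, PFKFB3, LDHA and EGLN3 between EBC-1 and HCC827, SLC2A1, PFKM and ALDOC between EBC-1 and PC-9, and PFKFB2, PFKFB3 and EGLN3 between PC-9 and HCC827.

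The other genes of the pathway were taken from 6 lists of 99 genes in all. In EBC-1 76 of them were tested, of which 22 rose and 20 fell (28.9% and 26.3%), against 23.1% and 21.6% of all genes. In HCC827 77 were tested, with 13 up and 18 down (16.9% and 23.4%, against 17.2% and 20.7%), and in PC-9 81, with 1 up and none down (1.23% and 0%, against 0.678% and 1.41%). The median log2 changes were 0.02, -0.01 and 0.05 in EBC-1, HCC827 and PC-9. How the calls of these genes fared under the alternatives is not given here.

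At the entry of pyruvate into the mitochondria, 5 of the 13 genes tested in EBC-1 rose and 3 fell, where 23.1% of all genes rose and 21.6% fell. PDK4, a pyruvate dehydrogenase kinase of fasting and fat use, fell from 8.97 ± 0.784 to 3.57 ± 0.577 FPKM (-1.13, adjusted p = 0.000397). Pyruvate carboxylase PC fell in both EBC-1 (-0.94, adjusted p = 0.000803) and HCC827 (-0.78, adjusted p = 0.000415), and so did the kinase PDK2 (-0.70 and -0.30, adjusted p = 0.000874 and 0.0391). In HCC827 4 of 12 rose and 2 fell, where 17.2% and 20.7% of all genes did. PDHA1, a subunit of pyruvate dehydrogenase, rose there from 19.4 ± 0.812 to 27.5 ± 1.19 FPKM (0.49, adjusted p = 0.00103) and by 0.19 in EBC-1 (adjusted p = 0.0366). The phosphatase PDP2, which opposes the kinases, rose in both lines (0.39 in HCC827 and 0.26 in EBC-1). None of 13 was called in PC-9.

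In the pentose phosphate pathway, which branches off after hexokinase and makes NADPH, 2 of 7 genes rose in EBC-1 (RPE by 0.32 and PGD by 0.28 on the log2 scale) and none fell, where 23.1% of all genes rose and 21.6% fell. In HCC827 1 of 7 rose (RPIA, 0.32) and 4 fell, among them the transketolase TKT (-0.33, adjusted p = 0.00544), where 17.2% of all genes rose and 20.7% fell. In glycogen metabolism and gluconeogenesis, 3 of 9 rose and 2 fell in EBC-1, to be read against the same shares. PCK2, the mitochondrial PEP carboxykinase, fell there from 8.26 ± 0.495 to 3.71 ± 0.227 FPKM (-0.97, adjusted p = 0.00017), the glycogen branching enzyme GBE1 rose (0.52, and 0.27 in HCC827) and the phosphoglucomutase PGM1 fell (-0.45). In HCC827 2 of 11 rose and 6 fell. FBP1, which reverses the phosphofructokinase step, fell from 6.24 ± 0.729 to 1.84 ± 0.429 FPKM (-1.35, adjusted p = 0.000444), PGM1 fell from 53.8 ± 2.26 to 24.5 ± 1.33 (-1.10) and the glycogen phosphorylase PYGB from 201 ± 8.76 to 125 ± 2.57 (-0.69). No gene of either list was called in PC-9.

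Of the other isozymes of glycolysis, 3 of 10 rose and 1 fell in EBC-1, where 23.1% of all genes rose and 21.6% fell. Among the rises were BPGM (0.42) and ADPGK (0.40), and the fall was that of LDHD, a mitochondrial D-lactate dehydrogenase, from 3.25 ± 0.373 to 0.657 ± 0.151 FPKM (-1.36, adjusted p = 0.000251). In PC-9 HKDC1, a hexokinase relative, rose from 8.92 ± 0.416 to 12.8 ± 0.44 FPKM (0.47, adjusted p = 0.0488) as 1 of 13, where 0.678% of all genes rose. In HCC827 the sugar transporter SLC2A8 fell (-0.43, adjusted p = 0.0117) as 1 of 11, where 20.7% of all genes fell.

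Among 31 other HIF targets, of which GBE1 is also on the glycogen list, 8 of 27 rose and 12 fell in EBC-1, where 23.1% of all genes rose and 21.6% fell. In HCC827 6 of 26 rose and 5 fell, beside 17.2% and 20.7% of all genes. DDIT4, a stress-induced inhibitor of mTORC1, fell in EBC-1 from 420 ± 54.0 to 135 ± 5.42 FPKM (-1.62, adjusted p = 6.86e-05) and by 0.33 in HCC827 (adjusted p = 0.0403). ANGPTL4, a secreted inhibitor of lipoprotein lipase, fell in EBC-1 from 57.9 ± 13.4 to 36.3 ± 4.99 FPKM (-0.64, adjusted p = 0.0228). TMEM45A rose in both lines, from 0.634 ± 0.0871 to 2.64 ± 0.252 FPKM in EBC-1 (1.16, adjusted p = 0.000312) and from 0.382 ± 0.15 to 1.85 ± 0.412 in HCC827 (1.04, adjusted p = 0.00178). The lipid droplet gene HILPDA fell in HCC827 (-0.51, adjusted p = 0.00241) and EBC-1 (-0.31, adjusted p = 0.037), and RAB20, a small GTPase, did so as well (-0.42 and -0.26, adjusted p = 0.00477 and 0.0422). None of 27 was called in PC-9. For oxygen sensing and the HIF subunits beyond the members, 2 of 11 rose (CUL2 by 0.59 and ELOC by 0.40) and 2 fell in EBC-1, with VHL, the receptor subunit of the ligase that marks HIF-1α, going from 25.0 ± 0.556 to 19.8 ± 0.697 FPKM (-0.32, adjusted p = 0.00508). ELOC, another subunit of that ligase, was the single call in HCC827 (0.24, adjusted p = 0.0173).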

How the data were processed

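RNA of 18 bulk samples was sequenced on Illumina instruments, and the submitters' processing notes name CASAVA, HISAT2 and both hg19 and hg38. The methods of the study align the reads to hg38, whose coordinates are those given here. The authors deposited 1 table of FPKM per cell line, with gene length and gene annotation columns (per the file headers). The read filters, the counter and its strand setting are not given in the sources used here. FPKM times the deposited gene length, divided by its step in each library, came out within 0.001 of a whole number for 100% of values, which gave the reads behind each value and the depth of 7920099 to 15729103 reads on genes. Values of fewer than 3 reads count as not detected, a limit that covers counting error only.

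Within each line, shSYK was compared with nc by limma 3.58.1 in R 4.3.3 (two-sided, variance trend) on log2(FPKM + 1) over genes with a mean of at least 1 FPKM, with Benjamini-Hochberg adjustment over all genes tested. A fold change on this scale understates that of low genes. Lines were compared in a fit of all 18 libraries. With 3 libraries against 3 an exact permutation test of a single gene cannot go below p = 0.1. Tables and figures were made with Python 3.11.15, pandas 2.3.3 and matplotlib 3.10.9, and the scripts were tested on simulated data. Of 200 changed genes per line, 96.5%, 95.0% and 96.0% were recovered for EBC-1, PC-9 and HCC827, beside 11, 12 and 24 false calls. The simulation set the same spread for all lines, whereas chi-square per degree of freedom between real replicates ran from 2.11 to 38.66. Alternatives changed the pseudocount (0.1), the filter (none, or 5 FPKM), the scaling (TPM, quantile), the variance trend, the replicate block, length and GC trends (lowess span 0.3) and the test (limma-voom on the recovered reads), and left out each library in turn.

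The members and the gene lists were chosen with earlier results of these data known. Values of every library are given for 17 core members and, in each line, for the 6 members with the largest change among those called and without overlap, which made 21 members. For each other list up to 3 called genes per line with the largest change are named.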

Additional observations from a re-analysis of the deposited data

Results flagged for a closer look

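The 21 values here are differences between 2 cell lines in the response to SYK knockdown, each past the threshold in the limma fit of all 18 libraries. They are differences of shSYK minus nc changes on the log2(FPKM + 1) scale. The 3 pairs of lines share libraries, so the pairs are not independent of each other.

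For EBC-1 minus PC-9 the difference was -0.92 for SLC2A1, -0.42 for PFKM, -1.23 for ALDOC, -0.34 for LDHB, -0.34 for SLC16A1, -0.40 for VEGFA, -0.61 for NDRG1 and -0.77 for ANKRD37. In all 8 the change was lower in EBC-1. Of 22 alternatives VEGFA lost its call in 16, SLC16A1 and NDRG1 in 11 each and LDHB in 8, and ANKRD37 in 12 of 21. LDHB and ANKRD37 were not called within either line.

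For EBC-1 minus HCC827 it was -0.95 for SLC2A1, -0.37 for PFKM, -1.09 for ALDOC and -0.33 for PFKFB2, with the lower change in EBC-1. It was 0.94 for PFKFB3, 0.64 for PGK1, 0.76 for LDHA and 1.10 for EGLN3, with the lower change in HCC827. PFKM lost its call in 10 of 22 alternatives, PFKFB2 in 12 of 21 and PGK1 in 1. PFKFB2 was below the level filter within EBC-1 and passed it over the 18 libraries.

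For PC-9 minus HCC827 it was -0.52 for PFKFB2, 1.004 for PFKFB3, 0.69 for PGK1, 0.71 for NDRG1 and 1.09 for EGLN3. NDRG1 lost its call in 12 of 22 alternatives and PGK1 in 1.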

How the results depend on the processing

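Each value was computed again under the alternatives. Beyond the counts by line, the totals cover the 21 members with values of every library, called or not, and the 21 called differences. In these, 1268 values kept direction and side of the threshold, 166 lost the threshold, 14 passed it and 44 changed sign. Calls of other members, such as PFKP, BNIP3L and P4HA1, are outside these totals. Without a filter there were 2 rises and 7 falls in EBC-1, 0 rises in PC-9, and 3 rises and 9 falls in HCC827. Over all genes that run gave 2235 rises and 2251 falls among 30478 genes in EBC-1. It gave 22 and 25 among 28526 in PC-9, and 1585 and 1907 among 27557 in HCC827. In the fit of 18 libraries PC-9 had 2 rises and 1 fall and HCC827 9 falls. Over all genes that fit gave 597 rises and 757 falls in PC-9 and 1740 falls in HCC827. With TPM, PC-9 had 0 rises and HCC827 8, with quantile normalization PC-9 had 0, and with limma-voom HCC827 had 11. The cause was not tested. Removing trends on length and GC content, chosen after seeing the data, moved the share of upward calls over all genes in PC-9 from 32.4% to 45.8%. Leaving out each library in turn gave 2 to 6 rises and 7 to 14 falls in EBC-1, 0 to 1 rises in PC-9, 3 to 5 in HCC827, 3 to 15 differences between EBC-1 and PC-9 and 4 to 12 between PC-9 and HCC827. Over all genes in EBC-1 the same runs gave 1959 to 3259 rises and 1802 to 3050 falls. They gave 5 to 298 rises over all genes in PC-9 and 1450 to 1699 in HCC827. The share of all genes that differed between lines in these runs is not given here.

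The replicate numbers are not stated to pair libraries, and deviations of same-numbered libraries correlated between -0.219 and 0.325 over genes. Among the nc libraries, only PC-9 replicate 2 and HCC827 replicates 2 and 3 correlated best with the shSYK library of their own number. With the replicate block there were 3 rises in EBC-1 and 0 in PC-9, and the differences numbered 4 between EBC-1 and PC-9 and 3 between PC-9 and HCC827. Over all genes the rises with the block were 2241 in EBC-1 and 47 in PC-9. The share of all genes that differed between lines with it is not given here.

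The changes that turned sign were of members not called in that line, except ENO1, PDK1 and BNIP3L in EBC-1. With TPM the log2 change was 0.109 for ALDOA and 0.103 for PGK1 in EBC-1 and -0.011 for PGK1 in PC-9. Quantile normalization gave 0.224 for ALDOA, 0.089 for PGK1, 0.105 for ENO1 and 0.070 for PKM in EBC-1, and -0.031 for ALDOA, -0.052 for PGK1 and -0.010 for LDHA in PC-9. By limma-voom ALDOA was at 0.068 and PGK1 at 0.061 in EBC-1. With the trends on length and GC content removed, ALDOA was at 0.072, PDK1 at -0.087 and BNIP3L at -0.024 in EBC-1, and PGK1 at -0.029, ADM at 0.048 and HIF1A at -0.066 in PC-9. Without 1 library, EBC-1 gave -0.121 to 0.039 for ALDOA, -0.098 to 0.011 for PGK1 and -0.099 to 0.258 for ADM. PC-9 gave -0.152 to 0.025 for HK2, -0.191 to 0.0019 for PFKM, -0.124 to 0.270 for ALDOA, -0.060 to 0.160 for PGK1, -0.261 to 0.093 for ENO1, -0.251 to 0.097 for PKM, -0.019 to 0.203 for LDHA, -0.066 to 0.206 for SLC16A3, -0.131 to 0.108 for ADM, -0.042 to 0.240 for NDRG1 and -0.260 to 0.270 for HIF1A.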
